A study of Mus musculus with 6 samples.

Results

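The sirtuins are a family of deacylase enzymes, and the 7 mouse members, Sirt1 to Sirt7, were taken by gene symbol from the 17469 genes of the deposited count table. They were grouped by the compartment in which each protein mainly works. Sirt1, Sirt6 and Sirt7 are nuclear, Sirt2 is cytosolic, and Sirt3, Sirt4 and Sirt5 are mitochondrial. RNA-seq was performed in tdTomato+ cells, termed OB (osteoblast) progenitors in the study and sorted from bone marrow stromal cell (BMSC) cultures of 6-month-old mice. Both genotypes carried OCN-Cre, in which the osteocalcin promoter drives Cre, and Ai9, a reporter allele that turns on tdTomato after Cre has acted. The 3 control libraries came from OCN-Cre;Ai9 mice. The 3 TgAPPsweOCN;Ai9 libraries came from mice that also carried the Cre-dependent transgene for APPswe, human amyloid precursor protein with the Swedish mutation. The cells received no treatment, and how many mice each library stands for is not given in the sources used here. P-values therefore measure the spread between libraries, which may be partly technical.

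Sirtuins remove acetyl and other acyl groups from lysines and consume NAD+ in each reaction, so their activity depends on NAD+ supply and on other enzymes that use NAD+. Nuclear members act on histones, transcription factors and ribosomal DNA. The cytosolic member acts on tubulin among other proteins, and the mitochondrial members act on enzymes of fuel oxidation and of defence against reactive oxygen. In bone, sirtuins are known for roles in osteoblast and osteoclast differentiation and in ageing. Transcript level does not give enzyme activity, which was not measured in these libraries.

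The labelled cell type was checked against marker genes, and the markers went against it: myeloid genes far outweighed those of the stromal and osteoblast lineage. The cells are called OB progenitors here only as the study's name for them. Estimated counts per library totalled 19340810 to 19801060 in control and 21677461 to 22037840 in TgAPPsweOCN;Ai9. Myeloid markers were abundant in all 6 libraries: their 15 genes summed to an FPKM (fragments mapped, scaled to transcript length and library size) of 24763 to 26366 in control and 19277 to 22946 in TgAPPsweOCN;Ai9. The 15 stromal and osteoblast-lineage markers summed to 1135 to 1221 and 653 to 923, most of it from Spp1 (870 to 1000.3 and 481 to 672), which macrophages also express. The median over these 15 was 3.04 to 3.1 in control and 3.44 to 4.89 in TgAPPsweOCN;Ai9. Bglap, which encodes osteocalcin, had an FPKM of 0.35 to 1.25 in control and 0 to 0.49 in TgAPPsweOCN;Ai9, too few counts to be tested. Single myeloid markers moved in opposite directions. In the edgeR comparison described below, 8 of the 15 were lower and 5 higher, where 31.5% of all genes tested were lower and 32.5% higher, with log2 fold changes of -1.49 for Csf1r (the macrophage growth factor receptor) and 1.89 for Adgre1 (F4/80). Of the 14 stromal markers tested, 4 (28.6%) were lower and 3 (21.4%) higher, shares below those of all genes. Lymphoid markers summed to at most 3.66, erythroid and megakaryocytic ones to at most 0.89, endothelial ones to at most 6.07 and neutrophil ones to at most 44 in any library. The lymphoid sums were 0.94 to 1.52 in control and 3.3 to 3.66 in TgAPPsweOCN;Ai9, and the 1 lymphoid gene tested, Cd79b, was higher. Of 4 endothelial genes tested, 1 was lower and 1 higher, and of 6 neutrophil genes 1 was higher. The 1 erythroid and megakaryocytic gene tested was not called. The part of these cell type markers in the sirtuin differences was not tested. In bulk samples, fewer cells of a type and less RNA per cell cannot be told apart.

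The 7 genes lie at 7 separate loci on 5 autosomes (RefSeq annotation, GRCm38.p6, the assembly of the mm10 build). Sirt1 lies on the minus strand at chr10:63319005-63339035, and Sirt6 lies on the minus strand of the same chromosome at chr10:81621787-81627792. Sirt2 lies on the plus strand at chr7:28766752-28788665, and Sirt3 on the minus strand at chr7:140863663-140882309. Sirt4 (minus strand) lies at chr5:115478006-115490264, Sirt5 (plus strand) at chr13:43365389-43395203, and Sirt7 (minus strand) at chr11:120618371-120625014. For 4 members another protein-coding gene ends or begins close to the 5′ end of the sirtuin. Sirt2 and Nfkbib lie head to head on opposite strands with 107 bp between the annotated genes, Sirt3 and Psmd13 with 84 bp, and Sirt6 and Ankrd24 with 28 bp. The start used for the promoter window of Sirt2, and 1 of the pair used for Sirt3, is the annotated end of the gene. Both starts used for Sirt6 lie inside its annotated end, by 226 and 470 bp. Those used for Sirt4 and Sirt5 also lie inside the annotated gene, by 5967 and 146 bp. Sirt7 lies 102 bp downstream of Mafg on the same strand.

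The stretches between these gene pairs are shown because the genes on either side of 3 of them had different results. Each is written 5′ to 3′ on the strand of the sirtuin, and capitals mark the bases between the genes. Lower case marks up to 15 annotated bases of the neighbour before them and of the sirtuin after them. For Sirt6, the RefSeq promoter window ends inside the gap and holds 24 of its 28 bases.
Sirt2 (chr7:28766630-28766766, plus strand): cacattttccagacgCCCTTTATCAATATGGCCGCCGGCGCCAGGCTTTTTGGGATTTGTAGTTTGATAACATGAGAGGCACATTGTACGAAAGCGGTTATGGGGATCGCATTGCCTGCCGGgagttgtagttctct
Sirt3 (chr7:140882295-140882408, minus strand): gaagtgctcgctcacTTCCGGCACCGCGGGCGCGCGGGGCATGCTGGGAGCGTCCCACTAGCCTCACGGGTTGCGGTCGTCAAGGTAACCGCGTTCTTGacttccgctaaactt
Sirt6 (chr10:81627778-81627816, minus strand): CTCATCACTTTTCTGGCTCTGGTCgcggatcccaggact
Sirt7 (chr11:120625000-120625131, minus strand): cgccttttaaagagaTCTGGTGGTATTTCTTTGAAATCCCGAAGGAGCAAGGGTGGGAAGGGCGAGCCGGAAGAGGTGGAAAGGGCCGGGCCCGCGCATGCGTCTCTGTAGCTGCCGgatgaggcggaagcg

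Of the bases in capitals, 69% are G or C for Sirt3, 61.8% for Sirt7, 51.4% for Sirt2 and 50% for Sirt6, where the median promoter window of all genes has 52.7%. RefSeq promoter windows, from 250 bases before to 50 after a start, were searched on both strands for 5 short motifs. The 7 sirtuins have 9 windows, since Sirt3 and Sirt6 have a pair of starts each. The letters CCGGAA, the core bound by ETS factors, stood in 4 of the 9 windows (Sirt3, Sirt4, Sirt6 and Sirt7) and in 14.9% of all 32851 windows. The start of the Sirt4 window lies 5967 bp inside its annotated 5′ end. In the stretches above they occur in Sirt3, read on the other strand, and in Sirt7. The GC box GGGCGG stood in 6 of 9 windows against 35.7% of all windows, and CCAAT in 3 of 9 against 37.4%. The E-box CACGTG was found in Sirt1 alone among the sirtuins, against 7.15% of all windows. No sirtuin window held the letters TATAAA, which 13.6% of all windows hold. The motifs were chosen with the windows already seen, so these shares only describe the letters in these windows and were not tested.

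All 7 sirtuins were expressed in both genotypes, and their levels per transcript length spanned a wide range. Sirt2 was the most abundant in control cells, with an FPKM of 86.7 ± 4.79 (mean ± SD, n = 3 libraries), followed by Sirt7 with 61.6 ± 3.17. Sirt6 came next with 10.5 ± 0.304. Sirt1 (7.62 ± 0.927), Sirt4 (7.22 ± 0.656) and Sirt3 (6.64 ± 0.556) followed, and the library ranges of neighbours in this order overlapped between Sirt1 and Sirt4 and between Sirt4 and Sirt3. Sirt5 was lowest with 3.18 ± 0.240. In TgAPPsweOCN;Ai9 cells the order was Sirt2, Sirt7, Sirt6, Sirt4, Sirt1, Sirt3 and Sirt5, and Sirt1 and Sirt3 were the only neighbours in that order whose ranges overlapped. The FPKM of the whole family summed to 183 ± 7.45 in control and 135 ± 2.90 in TgAPPsweOCN;Ai9.

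**Figure D1:**
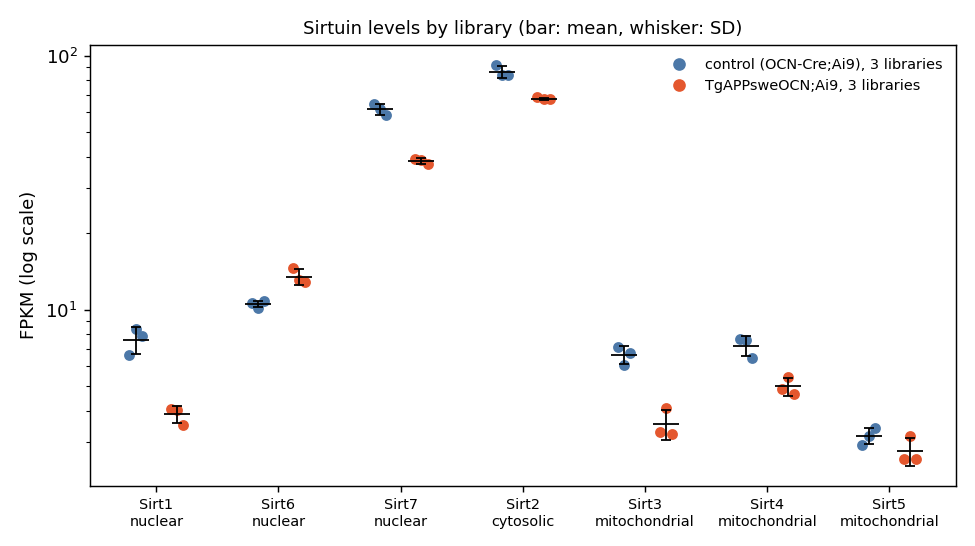
FPKM (log axis) of the 7 sirtuins in each of the 3 control (blue) and 3 TgAPPsweOCN;Ai9 (orange) libraries, with the mean as a bar and the SD as whiskers. Sirt2 and Sirt7 lie far above the other members in both genotypes, Sirt6 is the only member whose TgAPPsweOCN;Ai9 libraries lie above control, and the libraries of Sirt5 overlap.

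To ask how APPswe in the OCN-Cre lineage went with sirtuin transcripts, counts of the genotypes were fitted in edgeR (quasi-likelihood test, TMM normalization), with p adjusted over 12701 genes by Benjamini-Hochberg. Of the 7 members, 4 fell (Sirt1, Sirt3, Sirt4 and Sirt7), 1 rose (Sirt6), and Sirt2 and Sirt5 did not pass an adjusted p of 0.05. Among all genes tested, 31.5% were called lower and 32.5% higher. By compartment, 2 of the 3 nuclear members fell and 1 rose, 2 of the 3 mitochondrial members fell, and the cytosolic member was not called. The call of Sirt4, 1 of those 2, was lost with DESeq2 and in 4 of the 6 fits that left out a library, which leaves Sirt3 alone. None of the 7 reached a log2 fold change of 1 in either direction, which 9.2% of all genes did with a lower and 8.9% with a higher call. All 7 passed edgeR's filter on low counts. In 5 members every TgAPPsweOCN;Ai9 library was below every control library in CPM (counts scaled to TMM-adjusted library size), and in Sirt6 every one was above. Such non-overlapping genes made up 34.9% (lower) and 34.8% (higher) of all genes. For these 6 members the two-sided exact permutation p was 0.1, the smallest that 3 libraries against 3 allow.

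The scaling bears on all of these values. With TMM the median log2 fold change of all genes was -0.02, and with scaling by library size only it was -0.23. FPKM values carry no TMM factor, so the ratio of mean FPKM lies lower than the fitted fold change for every member. Sirt6 lay above the median of all genes under both scalings, and the other 6 members lay below it, Sirt5 within its standard error.

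**Figure D2:**
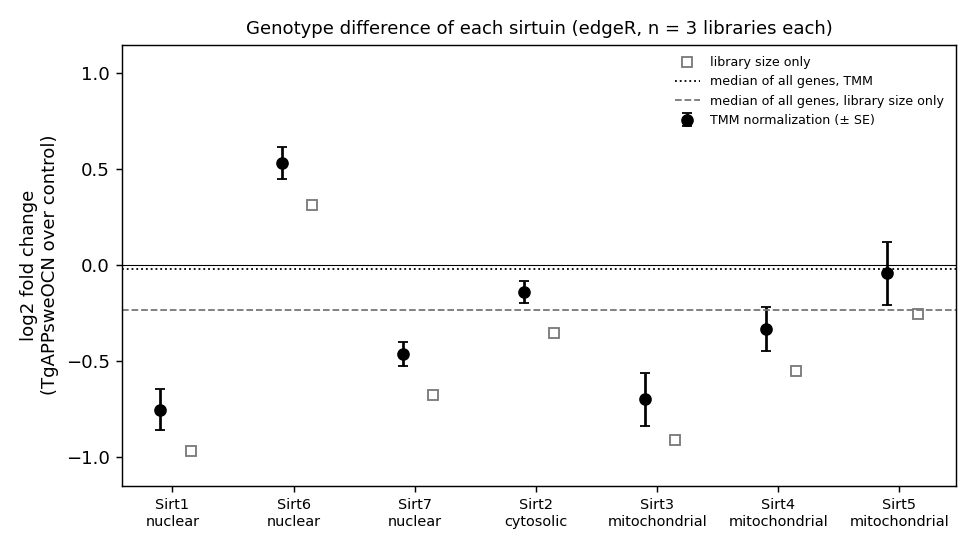
Log2 fold change (TgAPPsweOCN;Ai9 over control) of each sirtuin from edgeR with TMM normalization (filled circles, ± SE) and with library size only (open squares); the dotted and dashed lines give the median of all genes under each scaling. Sirt6 lies above the median in both and the other members below it, Sirt5 close to it.

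Among the nuclear sirtuins, Sirt1 (Entrez 93759) deacetylates transcription factors such as P53, the FOXO proteins and NF-κB. Its FPKM was 6.6, 8.41 and 7.85 in control and 4.06, 4.04 and 3.52 in TgAPPsweOCN;Ai9 cells. The lowest control library stood above all TgAPPsweOCN;Ai9 libraries, and the control libraries were the more spread. Sirt1 had the lowest fold change of the family in this fit, a log2 fold change of -0.75 (SE 0.107, adjusted p = 0.000319), or 40.7% lower.

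Sirt7 (Entrez 209011) works in the nucleolus on ribosomal RNA transcription. Its FPKM was 64.67, 61.76 and 58.33 in control and 39.25, 38.78 and 37.45 in TgAPPsweOCN;Ai9 cells. The libraries formed 2 tight groups with a wide gap between them. Its log2 fold change was -0.46 (SE 0.0622, adjusted p = 0.000235), or 27.4% lower, and its adjusted p was the smallest of the family.

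Sirt6 (Entrez 50721) deacetylates histone H3 at telomeres and at genes of glucose metabolism and takes part in DNA repair. Its FPKM was 10.64, 10.19 and 10.77 in control and 14.6, 13.03 and 12.83 in TgAPPsweOCN;Ai9 cells. All TgAPPsweOCN;Ai9 libraries were above control, the first of them by most. Its log2 fold change was 0.53 (SE 0.0836, adjusted p = 0.000577), or 44.6% higher, opposite to the other nuclear members. The FPKM ratio of Sirt6 to Sirt1 within a library went from 1.40 ± 0.202 to 3.49 ± 0.229, and that of Sirt6 to Sirt7 from 0.171 ± 0.0115 to 0.350 ± 0.0192, neither with overlap. The ratio of Sirt7 to Sirt1 was 8.19 ± 1.39 and 9.97 ± 0.582, and its library ranges overlapped. Summed over the nuclear members, in which Sirt7 weighs most, FPKM was 79.7 ± 2.54 in control and 55.9 ± 2.06 in TgAPPsweOCN;Ai9.

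The cytosolic member Sirt2 (Entrez 64383) deacetylates tubulin and is the family's most abundant transcript in these cells. Its FPKM was 92.2, 83.79 and 84.01 in control and 68.49, 67.29 and 67.33 in TgAPPsweOCN;Ai9 cells. The groups did not overlap, but the distance between them depended on the scaling. With TMM the log2 fold change was -0.14 (SE 0.0590, adjusted p = 0.0654). With library size only it was -0.36 (adjusted p = 0.000579), where the median of all genes was itself -0.23. The share of Sirt2 in the family's summed FPKM was 47.2% ± 0.882 in control and 50.2% ± 0.848 in TgAPPsweOCN;Ai9, without overlap. Relative to Sirt7, the next in order, it stood at 1.41 ± 0.0446 and 1.76 ± 0.0337.

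Among the mitochondrial sirtuins, Sirt3 (Entrez 64384) is the main deacetylase of the matrix and acts on enzymes such as SOD2 and IDH2. Its FPKM was 7.14, 6.04 and 6.73 in control and 3.31, 4.09 and 3.24 in TgAPPsweOCN;Ai9 cells. The lowest control library exceeded the highest TgAPPsweOCN;Ai9 library. The log2 fold change was -0.70 (SE 0.136, adjusted p = 0.00195), or 38.4% lower, next to that of Sirt1 in size.

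Sirt4 (Entrez 75387) acts on glutamate dehydrogenase and on lipoyl and other acyl modifications. Its FPKM was 7.63, 7.56 and 6.46 in control and 4.85, 5.44 and 4.66 in TgAPPsweOCN;Ai9 cells. The third control library lay closest to the TgAPPsweOCN;Ai9 libraries, without overlap. The log2 fold change was -0.34 (SE 0.115, adjusted p = 0.0307), or 20.7% lower. This call was lost with DESeq2 (adjusted p = 0.0935) and without control library 1 (0.0816), control library 2 (0.0917), TgAPPsweOCN;Ai9 library 1 (0.0643) or TgAPPsweOCN;Ai9 library 3 (0.117). Its estimated counts were fractional in 4 libraries, so some of its reads were assigned only in part.

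Sirt5 (Entrez 68346) removes succinyl, malonyl and glutaryl groups. Its FPKM was 2.94, 3.19 and 3.42 in control and 2.58, 3.18 and 2.57 in TgAPPsweOCN;Ai9 cells. It was the only member whose genotypes overlapped, since the second TgAPPsweOCN;Ai9 library lay among the controls. The log2 fold change was -0.04 (SE 0.164, adjusted p = 0.840), and the two-sided exact permutation p was 0.9. With 77.07 to 102.99 estimated counts per library, fractional in all 6, it was also the least precisely measured member. Relative to Sirt3, the FPKM of Sirt5 stood at 0.483 ± 0.0622 in control and 0.783 ± 0.00856 in TgAPPsweOCN;Ai9, and that of Sirt4 at 1.09 ± 0.147 and 1.41 ± 0.0715, neither with overlap. The 3 mitochondrial members summed to an FPKM of 17.04 ± 0.590 and 11.3 ± 1.22. Their share of the family was 9.29% ± 0.0613 in control and 8.38% ± 0.847 in TgAPPsweOCN;Ai9, with overlapping ranges.

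The genes next to the sirtuins were then compared, since 3 of them lie head to head with a sirtuin across the stretches printed above. In all 3 pairs the neighbour's fold change had the opposite sign to that of the sirtuin. Nfkbib, which encodes an inhibitor of NF-κB, had an FPKM of 33.99, 30.55 and 29.8 in control and 49.05, 40.7 and 39.89 in TgAPPsweOCN;Ai9. It rose by a log2 fold change of 0.67 (SE 0.101, adjusted p = 0.000462), whereas Sirt2 was not called. Psmd13, a subunit of the proteasome cap, had an FPKM of 41.59, 41.38 and 38.47 in control and 49.35, 45.65 and 47.44 in TgAPPsweOCN;Ai9. It rose by 0.45 on the log2 scale (SE 0.0655, adjusted p = 0.000386), whereas Sirt3 fell. Ankrd24, an ankyrin repeat gene, had an FPKM of 3.52, 2.76 and 2.73 in control and 1.85, 1.62 and 1.82 in TgAPPsweOCN;Ai9. Its log2 fold change was -0.47 (SE 0.136, adjusted p = 0.0143), whereas Sirt6 rose.

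Mafg, a small Maf transcription factor upstream of Sirt7 on the same strand, fell with it by a smaller amount, with a log2 fold change of -0.17 (SE 0.0538, adjusted p = 0.0208). That call was lost without TgAPPsweOCN;Ai9 library 2 (adjusted p = 0.0764) or library 3 (0.0533). Pcyt2, an enzyme of phosphatidylethanolamine synthesis 423 bp beyond the 3′ end of Sirt7, had a log2 fold change of -0.97 (SE 0.0744, adjusted p = 8.42e-06). Herc4, a ubiquitin ligase gene 1123 bp beyond the 3′ end of Sirt1, rose by 0.60 on the log2 scale (adjusted p = 0.000223). Ric8a, a chaperone of G protein α subunits, overlaps the 3′ end of Sirt3 by 69 bp on the other strand, and whether the counting used strand is not given in the sources used here. Its log2 fold change was 0.16 (adjusted p = 0.0437), a call that held in 2 of 15 alternatives. It was lost with DESeq2 (adjusted p = 0.0544) and in 5 of the fits that left out a library, and the sign turned with library size only (-0.06). The remaining neighbours lie farther away or were not called. Dnajc12 (-0.34) and Tle6 (-0.24) had adjusted p of 0.0602 and 0.139, and both were called lower with library size only (-0.56, adjusted p = 0.00699, and -0.46, adjusted p = 0.0147). Dnajc12 was also called without control library 1 (-0.45, adjusted p = 0.0153). Rinl (0.05, adjusted p = 0.637) turned to -0.17 with library size only, and Pla2g1b had too few counts. Gfod1, 61216 bp from the 5′ end of Sirt5, fell (-1.33, adjusted p = 0.00334). Its FPKM was close to the detection limit, 0.26 ± 0.0624 in control and 0.09 ± 0.01 in TgAPPsweOCN;Ai9. Nol7 (0.32, adjusted p = 0.0143) and Pxn (0.27, adjusted p = 0.00247) rose with TMM but were not called with library size only.

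**Figure D3:**
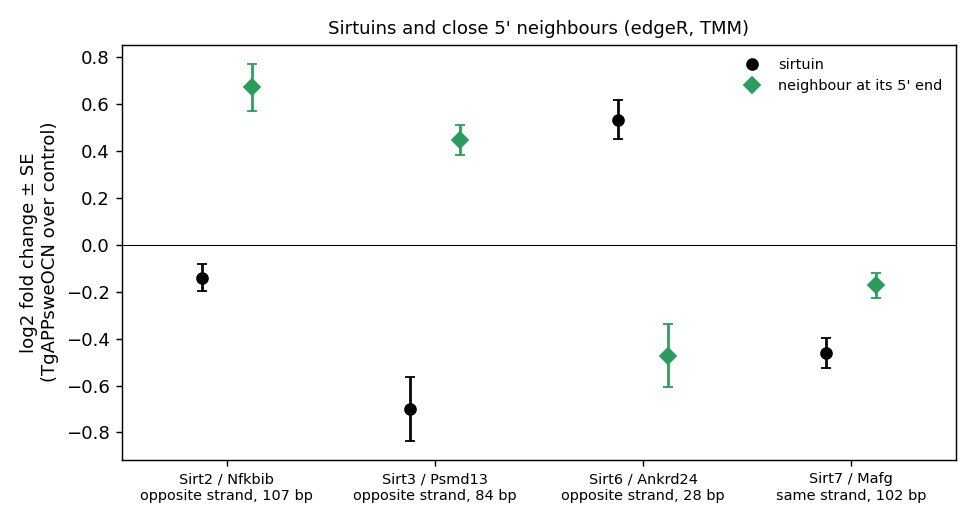
Log2 fold change ± SE (TgAPPsweOCN;Ai9 over control, edgeR with TMM, n = 3 libraries each) of 4 sirtuins (black circles) and of the gene at the 5′ end of each (green diamonds), with strand and distance under each pair. The symbols lie on opposite sides of zero for Sirt2, Sirt3 and Sirt6 and on the same side for Sirt7.

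Sirtuins draw on NAD+, which cells make by recycling nicotinamide, from nicotinic acid or from tryptophan. Of 22 genes listed under NAD+ synthesis, 15 were tested. Among these 15, 6 (40%) fell and 4 (26.7%) rose, near the 31.5% and 32.5% of all genes. The median log2 fold change was -0.21, against -0.02 for all genes. The list also holds Nadk, Nadk2, Nnmt and Slc25a51, which do not themselves make NAD+. Nadk and Slc25a51 are among the rises and Nadk2 among the falls. With library size only, 7 fell and 3 rose, and of all genes 45.9% fell and 22.1% rose. Nampt, the rate-limiting enzyme of nicotinamide recycling, had an FPKM of 32.9, 37.67 and 35.96 in control and 45.1, 43.9 and 44.99 in TgAPPsweOCN;Ai9. It rose by 0.55 on the log2 scale (SE 0.0637, adjusted p = 9.92e-05), and every TgAPPsweOCN;Ai9 library was above control. Nadk, which phosphorylates NAD+ to NADP+, rose from 86.5 ± 2.67 to 128 ± 1.17 in FPKM (log2 fold change 0.80, adjusted p = 4.36e-06). Ido2, of the tryptophan route, was close to the detection limit, with an FPKM of 0.0633 ± 0.0404 and 0.347 ± 0.146 (log2 fold change 2.56, adjusted p = 0.00154).

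The genes that fell most belong to the other routes. Naprt, the first enzyme of the nicotinic acid route, had an FPKM of 6.88 ± 0.551 in control and 1.86 ± 0.477 in TgAPPsweOCN;Ai9, with a log2 fold change of -1.68 (SE 0.172, adjusted p = 4.67e-05). Kmo and Kynu, enzymes of tryptophan breakdown through kynurenine, had log2 fold changes of -2.30 (adjusted p = 0.000115) and -1.23 (adjusted p = 0.00175). Both were low in all libraries, with mean FPKM of 2.49 and 1.36 in control and 0.43 and 0.517 in TgAPPsweOCN;Ai9.

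Of 18 listed enzymes that also consume NAD+, 11 (61.1%) rose and 4 (22.2%) fell, beside 32.5% and 31.5% of all genes, with a median log2 fold change of 0.62, and 7 of those that rose passed a log2 fold change of 1, which 8.9% of all genes did. With library size only, 10 rose and 5 fell, beside 22.1% and 45.9% of all genes. Cd38, an ecto-enzyme that breaks down NAD+, had an FPKM of 1.85, 0.53 and 0.95 in control and 22.25, 12.21 and 17.81 in TgAPPsweOCN;Ai9. The lowest TgAPPsweOCN;Ai9 library was far above the highest control library, with a log2 fold change of 4.19 (SE 0.374, adjusted p = 2.05e-05). Bst1, its paralog, went from 0.607 ± 0.172 to 6.82 ± 0.871 (log2 fold change 3.76, adjusted p = 1.06e-06). Both are also surface proteins of blood cells, and myeloid markers moved in both directions between these libraries, as given above.

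Among the poly- and mono-ADP-ribosyl transferases, Parp1, the main responder to DNA breaks, rose from 40.1 ± 0.592 to 58.4 ± 2.81 in FPKM (log2 fold change 0.76, adjusted p = 4.32e-06). Parp2, its partner in repair, fell from 23.5 ± 1.25 to 12.6 ± 0.560 (log2 fold change -0.69, adjusted p = 3.68e-05). Parp12, an interferon-inducible member, had the largest rise of this subgroup in this fit, from 21.6 ± 1.39 to 63.0 ± 3.31 (log2 fold change 1.76, adjusted p = 1.95e-07). Parp16 (-0.99, adjusted p = 0.00235) and Parp8 (-0.70, adjusted p = 1.23e-05) fell on the log2 scale.

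**Figure D4:**
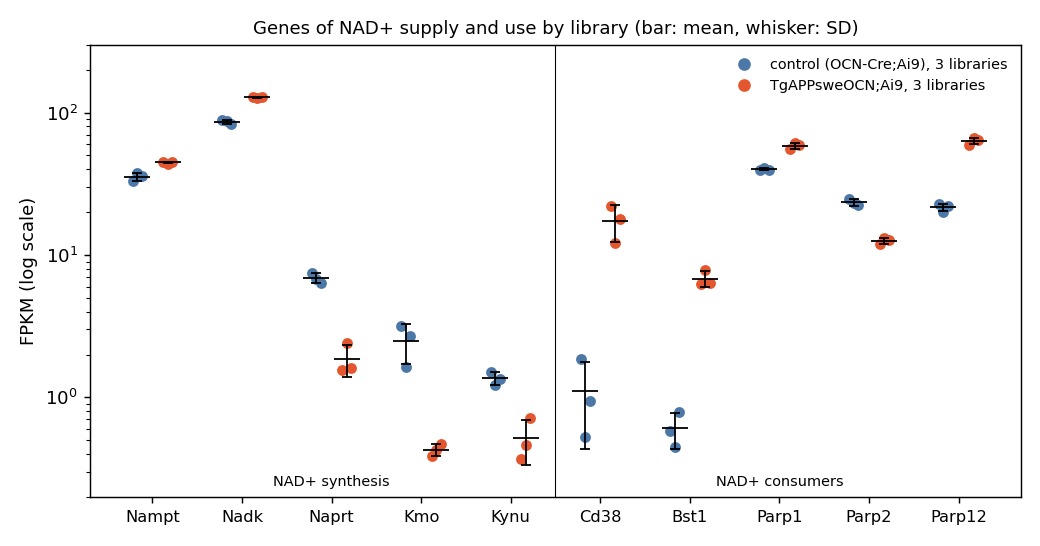
FPKM (log axis) of 5 genes listed under NAD+ synthesis and 5 NAD+ consumers in each library, with the mean as a bar and the SD as whiskers (3 control libraries in blue, 3 TgAPPsweOCN;Ai9 libraries in orange). Nadk, plotted among the synthesis genes, uses NAD+ to make NADP+. Nampt and Nadk are higher and Naprt, Kmo and Kynu lower in TgAPPsweOCN;Ai9, and Cd38 and Bst1 show the widest distance between genotypes.

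Of 28 regulators and nuclear or cytosolic substrates of sirtuins, 27 were tested, of which 11 (40.7%) fell and 5 (18.5%) rose, beside 31.5% and 32.5% of all genes (median log2 fold change -0.17). With library size only, 17 fell and 3 rose, and of all genes 45.9% fell and 22.1% rose. Foxo4, a forkhead transcription factor, had a log2 fold change of -1.22 (adjusted p = 2.58e-06) and an FPKM of 13.9 ± 0.610 in control and 5.10 ± 0.199 in TgAPPsweOCN;Ai9. Bub1b, a mitotic checkpoint kinase that SIRT2 stabilises, had a log2 fold change of -1.32 (adjusted p = 1.34e-05), and Pparg, the adipogenic nuclear receptor, one of -1.16 (adjusted p = 2.63e-05). Nr1h3, the oxysterol receptor LXRα, rose from 19.9 ± 0.737 to 66.7 ± 1.97 in FPKM (log2 fold change 1.97, adjusted p = 9.99e-08). Hif1a, the hypoxia-inducible factor subunit, rose by 1.16 on the log2 scale (adjusted p = 7.92e-06). Polr1a, the large subunit of the RNA polymerase whose transcription SIRT7 promotes, rose by 0.71 (adjusted p = 1.12e-05), whereas Sirt7 fell.

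Of 34 mitochondrial substrates, 31 were tested, and 24 (77.4%) of them rose while 4 (12.9%) fell, beside 32.5% and 31.5% of all genes (median log2 fold change 0.31). With library size only, 11 rose and 5 fell, with a median of 0.10, and of all genes 22.1% rose and 45.9% fell. Sod2, the manganese superoxide dismutase that SIRT3 activates, had an FPKM of 20.4 ± 0.822 in control and 147 ± 17.7 in TgAPPsweOCN;Ai9, with a log2 fold change of 3.07 (SE 0.105, adjusted p = 1.38e-07). It was the only gene of this list past a log2 fold change of 1 in this fit. Ppif, the cyclophilin of the permeability pore (0.92, adjusted p = 0.000192), and Slc25a5, an ADP/ATP carrier (0.73, adjusted p = 2.64e-05), rose on the log2 scale. The largest falls were in Mlycd, malonyl-CoA decarboxylase (-0.82, adjusted p = 5.12e-05), Idh2, the NADP+-dependent isocitrate dehydrogenase (-0.46, adjusted p = 0.000209), and Acadm, an acyl-CoA dehydrogenase (-0.38, adjusted p = 0.000348).

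The zinc-dependent histone deacetylases, which share substrates with sirtuins but do not use NAD+, gave 6 falls (54.5%) and 2 rises (18.2%) among 11 genes, beside 31.5% and 32.5% of all genes (median log2 fold change -0.40). Hdac5 and Hdac6 had log2 fold changes of -0.75 (adjusted p = 1.25e-05) and -0.64 (adjusted p = 0.000120). Hdac11 had one of -1.004 (adjusted p = 0.0110) at a mean FPKM of 0.837 in control and 0.390 in TgAPPsweOCN;Ai9. Hdac1 rose by 0.64 on the log2 scale (adjusted p = 2.33e-05). Hdac2 was called higher (0.24, adjusted p = 0.0130) but not with library size only (0.02, adjusted p = 0.743) or without control library 2 (0.22, adjusted p = 0.0515), which left 1 rise in this list.

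**Figure D5:**
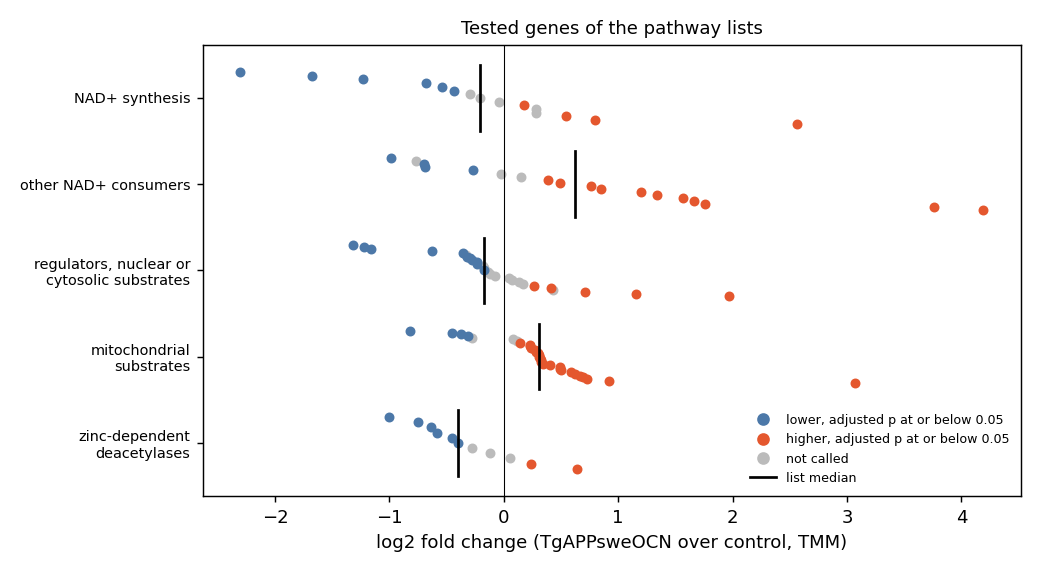
Log2 fold change (TgAPPsweOCN;Ai9 over control, edgeR with TMM) of every tested gene of the 5 lists, each point 1 gene, blue where called lower, orange where called higher and grey where not called, with the list median as a vertical bar. NAD+ consumers other than sirtuins and mitochondrial substrates have medians above zero (0.62 and 0.31), and the other 3 lists have medians below zero.

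Sirt7, the member with the smallest adjusted p, was used to find the genes of most similar pattern. Likeness was the root mean square difference of log2 CPM, centred on the control mean, over the 6 libraries. The 5 nearest genes were Pccb (0.0186), C1qc (0.0271), Zfp282 (0.0271), Dcakd (0.0273) and Kat5 (0.0281). Pccb encodes a subunit of propionyl-CoA carboxylase, and its FPKM was 24.2 ± 1.11 in control and 15.1 ± 0.107 in TgAPPsweOCN;Ai9. C1qc encodes a chain of complement C1q, which macrophages make, and its FPKM was 3552 ± 227 and 2222 ± 34.1. Kat5 encodes a histone acetyltransferase, and its FPKM was 27.3 ± 1.59 and 16.8 ± 0.185.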

How the data were processed

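RNA-seq of sorted tdTomato+ cells (labelled BMSCs, and OB progenitors in the study) was compared between 3 OCN-Cre;Ai9 (control) and 3 TgAPPsweOCN;Ai9 libraries of DNBSEQ reads. The authors removed rRNA, adaptor and low-quality reads. Per the submitters' processing notes, HISAT2 2.0.4, Bowtie2 2.2.5, RSEM 1.2.12, DESeq2 1.4.5 and build mm10 were used, and the annotation is not given in the sources used here. As estimated counts the authors deposited values that were fractional for 13.3% to 14.4% of genes per library, together with FPKM values rounded to 2 decimals. A further deposited table of a log2 ratio and a p-value per gene was not used.

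A test on raw counts had been planned, so the estimated counts were rounded to whole numbers. They were fitted over all genes with edgeR 4.0.16 under R 4.3.3 (filterByExpr, TMM, quasi-likelihood test, Benjamini-Hochberg adjustment), without a replicate block. Genes with an adjusted p at or below 0.05 were called. Standard errors (SE) were calculated as the size of the log2 fold change divided by the square root of the quasi-likelihood F statistic. The biological coefficient of variation was 9.85%. A floor of 3 counts was 0.136 to 0.155 CPM, for counting error only. Pairs of libraries of one genotype differed by a chi-square per gene of 4.53 to 25.6, and pairs of different genotypes by 259 to 298, so no library was a copy of another. Levels are means ± SD of FPKM. Exact permutation tests used log2 CPM (prior count 2).

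The members and lists were chosen with earlier results of these data known. Named genes were the 7 sirtuins, Nampt, Cd38, Parp1, App, protein-coding neighbours, the 5 genes most like the member of smallest adjusted p, defining cell type markers, and up to 3 rises and 3 falls of largest size per list among called genes without overlap. App, read by a single entry, rose from an FPKM of 279 ± 3.5 to 330 ± 4.18. Motifs were chosen with the windows already seen. Positions and promoter windows are from RefSeq (GRCm38.p6), and all 7 members matched. Strands of neighbours came from GENCODE. Alternatives were DESeq2 1.42.0, DESeq2 size factors, library size only, other count filters, a replicate block, leaving out each library, and limma 3.58.1 on log2 FPKM plus 1 or 0.1. Tables were prepared with Python 3.11.15, numpy 2.4.6 and pandas 2.3.3, and plots with matplotlib 3.10.9.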

Additional observations from a re-analysis of the deposited data

How the results depend on the processing

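Sirt1, Sirt3, Sirt6 and Sirt7 kept direction and call under all 15 alternatives run for each, with log2 fold changes of -0.97 to -0.68, -0.91 to -0.63, 0.32 to 0.59 and -0.68 to -0.43. Sirt2 became a call with library size only (-0.36), with 10 or more counts required per library (-0.15) and with limma at pseudocounts of 1 (-0.35, with or without a filter) and 0.1 (-0.35). Sirt4 was not called with DESeq2 (-0.32). When each library was left out in turn, Sirt4 ranged from -0.42 to -0.28 and Sirt5 from -0.17 to 0.037, where the sign turned without TgAPPsweOCN;Ai9 library 1 (0.0063) or library 3 (0.037). The number of sirtuins called ranged from 3 to 5 lower with 1 higher. It was 4 lower in the main fit, where 4007 of all 12701 genes were lower and 4122 higher. It was 5 lower with library size only, where 5826 were lower and 2806 higher. Limma also gave 5 lower (5273 of 11006 genes with a filter and a pseudocount of 1), as did 10 or more counts per library (3900 of 11869). DESeq2 gave 3 lower (3572 of 17418), as did some fits that left out a library. With a log2 fold change of 1 required, the counts were 0 and 0, beside 9.2% and 8.9% of all genes. The cause of these changes was not tested.

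For the lists, library size only gave 17 regulators and substrates lower and 3 higher, 11 mitochondrial substrates higher and 1 zinc-dependent deacetylase higher. Filtered limma with a pseudocount of 1 or 0.1 gave 2 NAD+ synthesis genes higher, 17 regulators lower and 11 mitochondrial substrates higher, and without a filter these counts were 3, 16 and 10. All 3 limma fits gave 1 deacetylase higher. Of all 11006 genes in the filtered fit with a pseudocount of 1, 5273 were lower and 2632 higher. With a pseudocount of 0.1 these were 5254 and 2629, and without a filter 5700 and 2870 of 17451 genes. Leaving out single libraries gave 1 to 2 deacetylases higher. Over all genes, higher calls made up 50.7% of calls with TMM and 32.5% with library size only. Of 53 other named genes, 9 changed call or sign in at least 1 alternative. Ric8a kept its call in 2 of 15 alternatives and turned to -0.059 with library size only and to -0.056, -0.057 and -0.056 in the 3 limma fits. Rinl turned to -0.17 with library size only, to -0.16, -0.17 and -0.16 with limma, and ranged from -0.028 (without TgAPPsweOCN;Ai9 library 1) to 0.096 when single libraries were left out.

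The libraries share replicate numbers. Deviations from the genotype mean of same-numbered libraries correlated with r of 0.0127, 0.00664 and 0.141. For differently numbered libraries r was -0.0522 to 0.0251. With 3 libraries per genotype, these values cannot settle whether the numbers pair the libraries. With a replicate block, 3905 genes were lower and 4040 higher, against 4007 and 4122, not every library correlated best with its own number, and no sirtuin call changed (Sirt1 -0.75, Sirt4 -0.33). Sirt5, with the fewest counts, had the largest standard error of the family.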
